A study of Mus musculus with 18 samples.

Results

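The immunoglobulin light chain loci of the mouse were read gene by gene in 18 RNA-seq libraries. The members were all genes whose names begin with Igkv or Igkj followed by a digit, Igkc, Iglv or Iglj followed by a digit, and Iglc followed by a digit. They numbered 178 of the 32285 genes in the count table, with 166 in the kappa locus and 12 in the lambda locus. The rule used gene names only, although it was set with earlier results of these data known. The libraries came from CD45.2+ bone marrow cells of C57BL/6 mice, called iLS cells in the labels, which were sorted by FACS. The 6 groups were control cells, BN1 cells (BRD9-NUTM1 fusion) and AFFN1 cells (AFF1-NUTM1 fusion), each at day 6 and at day 14, with 3 libraries per group. The titles call the controls of both days control, while the library descriptions name them Mock on day 6 and Cont on day 14. All groups shared the strain, the tissue, the CD45.2 genotype, the sort and poly(A)-selected stranded libraries. The labels do not say how the fusions were introduced, what day 0 was, or whether the 3 libraries of a group came from separate animals, so p-values measure the spread between these libraries. The mouse gene Nutm1 was listed at 0 reads in all 12 fusion libraries, and whether the table could count the fusion transcript is not given.

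A light chain gene is assembled in the pre-B cell. RAG proteins cut the DNA beside a variable (V) and a joining (J) segment, and the joined VJ exon is transcribed and spliced to a constant (C) segment. Before joining, the unrearranged Jκ-Cκ region and individual V segments give germline transcripts, so a read on Igkc or on an Igkv gene in bulk RNA does not show by itself that the gene was rearranged. Mouse B cells use kappa far more often than lambda, and the surrogate light chain (Igll1 with a Vpreb protein) pairs with the µ heavy chain (Ighm) before any light chain is made.

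Depth limited what could be seen of these genes. The libraries held 14182531 to 18383447 counts, and 1 read was worth 0.0501 to 0.0682 CPM (counts per 1000000). CPM here were scaled by the trimmed mean of M values (TMM) over all 18 libraries. Of the 178 members, 100 had at least 1 read and 78 had none. All 10 J segments, which are 38 to 43 bases long, and Iglc4 were at 0 reads in every library. Intervals on reads below are exact 95% intervals that cover counting error only.

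The labels and the marker genes were compared before the results. Genes of precursor B cells were abundant in every library, with Cd79a, a signalling subunit of the B cell receptor, at 620.3 to 4051 CPM and Vpreb1 at 806.0 to 1463 CPM. Markers of mature and antibody-secreting B cells, which carry abundant light chain mRNA, were counted in the same libraries. The mature B cell marker Ms4a1 (CD20) had 0 to 8 reads per library, Fcer2a 0 to 2 reads and the plasma cell receptor gene Tnfrsf17 0 to 3 reads. Other genes of the same lists had many reads. In the mature B cell list Ighd had 205 to 955 reads per library, Cxcr5 19 to 3829 and Cd74 49 to 10046. In the plasma cell list Mzb1 had 2344 to 7139 reads, Tnfrsf13b 1107 to 2748 and Xbp1 485 to 5264. The summed level of the 13 mature B cell markers was 42.1 to 137 CPM in the 9 libraries of day 6 and 159 to 886 CPM in the 9 libraries of day 14. The plasma cell list of 15 genes summed to 370.4 to 579.7 CPM on day 6 and 504.0 to 943.2 CPM on day 14, and Jchain had 11 to 685 reads per library. The part of these cells in the light chain values was not tested. In bulk RNA, more cells that carry a transcript and more transcript per cell cannot be told apart. The library names follow different schemes on the 2 days, so day and experiment cannot be told apart either.

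The constant exons of the lambda locus and the 3′ ends of 3 kappa V segments are shown because the counts depend on how well these genes can be separated. The sequences are from GENCODE M21 transcripts (mm10 build), and each runs 5′ to 3′ on the coding strand. In the first 90 bases of the lambda constant exons, capitals in Iglc1 and Iglc3 mark bases that differ from Iglc2, and capitals in Iglc2 mark bases that differ from Iglc3.
Iglc1: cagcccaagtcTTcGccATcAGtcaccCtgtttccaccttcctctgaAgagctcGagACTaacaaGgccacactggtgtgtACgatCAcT
Iglc2: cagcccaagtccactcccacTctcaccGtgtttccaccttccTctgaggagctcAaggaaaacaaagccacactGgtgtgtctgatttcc
Iglc3: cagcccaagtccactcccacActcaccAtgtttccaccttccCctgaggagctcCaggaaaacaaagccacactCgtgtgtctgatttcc

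Iglc2 and Iglc3 matched at 95.4% of 452 aligned bases, with a longest identical stretch of 79 bases, so reads could be divided between them by the authors' counting. Iglc1 matched Iglc2 at 76.2% and Iglc3 at 77.2% of 307 aligned bases, with identical stretches of at most 19 bases. Igll1, which is transcribed at a high level in these cells and is related to the lambda constant genes, shared at most 20 consecutive bases with Iglc1 and 17 with Iglc2 or Iglc3. Iglv1 and Iglv2 matched at 97.0% of 364 bases, with an identical stretch of 104 bases, and their reads are uncertain in the same way. Igkc lies at chr6:70726435-70726966 on the plus strand, and the noncoding gene Gm30211 overlaps it on the same strand. The lambda genes with reads lie on the minus strand of chromosome 16, with Iglc1 at chr16:19061618-19062071, Iglc3 at chr16:19065230-19065681, Iglv1 at chr16:19085017-19085500 and Iglc2 at chr16:19198396-19200351.

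Igkc, the single kappa constant gene, was close to the detection limit on day 6 and was higher on day 14 in each genotype. The control libraries of day 6 held 5, 3 and 9 Igkc reads. In BN1 cells of day 6 the libraries held 27, 7 and 30 reads. In AFFN1 cells of day 6 they held 1, 0 and 3 reads. As levels these were 0.308 ± 0.131 CPM in control, 1.16 ± 0.677 CPM in BN1 and 0.0744 ± 0.0832 CPM in AFFN1 cells (mean ± SD, n = 3). On the CPM scale all BN1 libraries lay above all AFFN1 libraries, all AFFN1 libraries lay below all control libraries, and BN1 and control libraries overlapped.

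On day 14 the control libraries numbered 1, 2 and 3 held 109, 986 and 2625 Igkc reads. The BN1 libraries held 229, 1083 and 843 reads, and the AFFN1 libraries held 48, 1104 and 1100 reads, in the same order of numbers. The mean level was 80.3 ± 85.6 CPM in control, 44.2 ± 27.1 CPM in BN1 and 48.6 ± 39.7 CPM in AFFN1 cells (n = 3 each). Every day 14 library exceeded every day 6 library of any genotype, and the 3 genotypes overlapped on day 14. The library numbered 1 was the lowest of its group in all 3 genotypes. The summed mature B cell markers did not follow that order: they stood at 886, 255 and 756 CPM in the control, 217, 159 and 278 in the BN1 and 624, 228 and 441 in the AFFN1 libraries numbered 1, 2 and 3. Single markers differed in this. Cd74 and Cxcr5, with up to 10046 and 3829 reads, were lowest in library 2 of each genotype, like the sum. Ighd, Fcmr and H2-Aa were lowest in library 1 of each genotype. Ighd had 407, 598 and 892 reads in control, 493, 955 and 878 in BN1 and 662, 719 and 837 in AFFN1 libraries. Tnfrsf13c was lowest in library 1 in control cells only. Same-numbered day 14 libraries share a code in their labels and deviated together from their group means across genes, so they were also compared number by number. By number, the BN1 library was 2.11, 1.10 and 0.300 times the control library in Igkc level, and the AFFN1 library was 0.442, 1.13 and 0.431 times it. Neither fusion was thus higher than control, or lower, for all 3 numbers.

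**Figure D1:**
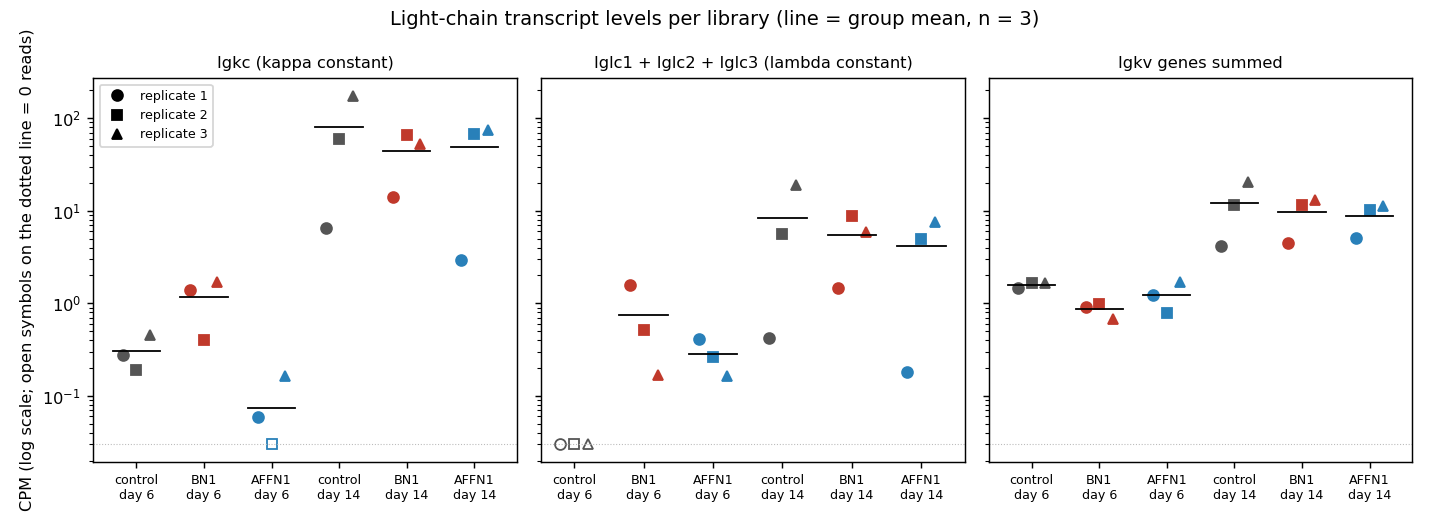
Levels per library of Igkc, of the lambda constant genes Iglc1 to Iglc3 summed, and of all Igkv genes summed, in CPM on a log axis, with 1 symbol shape per replicate number, a line at each group mean (n = 3) and open symbols for libraries with 0 reads. Day 14 libraries lie above day 6 libraries for Igkc, control libraries of day 6 have 0 lambda constant reads, and the circles (number 1) are the lowest symbol of each day 14 group.

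Of the members tested between days, every one but Igkv14-111 passed the low-count filter only through its day 14 reads, so the tests below describe a difference that the filter itself favoured. In the test across all genes, Igkc rose from day 6 to day 14 in control cells, by 7.95 on the log2 scale (SE 1.56, adjusted p = 0.00122, edgeR's quasi-likelihood test with Benjamini-Hochberg adjustment). In the BN1 cells it rose by 5.23 (SE 1.31, adjusted p = 0.0055, edgeR), and in AFFN1 cells by 9.23 (SE 1.85, adjusted p = 0.00121, edgeR). Without control library 3 of day 14 the control difference was 6.69, without AFFN1 library 3 of day 6 the AFFN1 difference was 10.43, and with the replicate number as a block the 2 values were 7.36 and 8.63, each still called. That block also used the day 6 numbers, which are not known to pair libraries. The starting levels differ by genotype, and the difference between the genotypes' changes did not pass: no light chain member was called for either fusion effect on day 14 minus day 6 in edgeR. Without the 3 day 14 libraries numbered 1, the AFFN1 difference in Igkc was 9.80 (SE 0.697, adjusted p = 7.51e-07, edgeR). Per kilobase of exon, Igkc reached 151 ± 161 CPM in control cells of day 14, against 2472 ± 555 CPM per kilobase for Ighm, the µ heavy chain constant gene, and 682 ± 43.5 for Igll1 (n = 3). On day 6 the control values per kilobase were 0.578 ± 0.246 for Igkc, 826 ± 98.2 for Ighm and 617 ± 69.8 for Igll1. The overlapping noncoding gene Gm30211 had 3, 9 and 0 reads in the control, BN1 and AFFN1 groups of day 6 and 349, 158 and 234 on day 14, and how reads were divided between it and Igkc is not given in the sources used here.

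The lambda constant genes were absent from the reads of control cells on day 6 and present in every fusion library of that day. Summed over Iglc1, Iglc2 and Iglc3, the control libraries held 0, 0 and 0 reads, the BN1 libraries 31, 9 and 3 reads, and the AFFN1 libraries 7, 5 and 3 reads. Taking 3 reads over the control group as the floor, the summed level was at least 14.0-fold higher in BN1 and at least 4.92-fold higher in AFFN1 cells than in control cells. BN1 and AFFN1 libraries overlapped. The library numbered 1 held 31 of the 43 BN1 reads. Mature B cell markers also differed between these groups: of the 6 of 13 that were tested, 4 were higher and 1 lower in BN1 than in control cells, and 3 higher and none lower in AFFN1 cells, with 17.4 and 12.7% of all genes called. H2-Ab1, an MHC class II gene, had 0, 0 and 0 reads in control, 32, 33 and 10 in BN1 and 7, 7 and 4 in AFFN1 libraries, and Cxcr5, a chemokine receptor gene, had 22, 50 and 52 in control, 242, 227 and 224 in BN1 and 19, 26 and 52 in AFFN1 libraries. The defining marker Ms4a1 had 1 read in BN1 library 2 and 0 in the other libraries of day 6. The markers did not all differ in the same direction. Cd74 had 585, 1740 and 283 reads in control, 71, 111 and 49 in BN1 and 149, 195 and 1436 in AFFN1 libraries. Cd40 had 29, 20 and 21 in control, 3, 5 and 7 in BN1 and 44, 34 and 37 in AFFN1 libraries. The summed level of the 13 markers, which mixes these directions, was 42.1 to 137 CPM in control, 53.0 to 70.2 in BN1 and 63.4 to 127 in AFFN1 cells. These ranges overlapped. The part of these markers' cells in the lambda result was not tested.

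The reads of day 6 came from Iglc1 and Iglc3, with Iglc2 at 1 read in each fusion. Iglc3 had 14, 4 and 3 reads in BN1 cells and 5, 5 and 2 reads in AFFN1 cells, and both fusions lay above the control libraries without overlap. Iglc1 had 16, 5 and 0 reads in BN1 cells and 1, 0 and 1 reads in AFFN1 cells. Iglv1, the V segment most often joined to these constant genes, had 25, 5 and 6 reads in BN1, 4, 0 and 1 in AFFN1 and 0, 1 and 0 in control cells. The BN1 libraries were thus above all control and AFFN1 libraries for Iglv1. Against control the ratio for Iglv1 in BN1 cells was 35.2 (95% counting interval 5.92 to 1428, on 36 and 1 reads). Iglv3 and Iglv2 had at most 2 reads in any library of day 6.

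These genes were too low for the main filter on day 6, where Igkv14-111 was the only member tested. When all genes with at least 1 read were tested, an alternative setting, 33 members entered and 3 were called between BN1 and control cells, with 5.92% of all genes called higher and 4.97% lower. Iglc3 (adjusted p = 0.0162, edgeR) and Iglv1 (adjusted p = 0.0202, edgeR) were higher in BN1 cells. The V segment Igkv2-109 was lower (adjusted p = 0.0364, edgeR), with 7, 6 and 1 reads in control and 0 in each BN1 library, at least 4.78-fold on the floor of 3 reads. Between BN1 and AFFN1 cells, Igkc was higher in BN1 under that setting (log2 difference 3.86, SE 0.80, adjusted p = 0.00662, edgeR; 3.17% of genes higher).

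On day 14 the lambda constant reads were 7, 91 and 286 in control, 24, 145 and 95 in BN1 and 3, 80 and 110 in AFFN1 libraries. The mean summed level was 8.31 ± 9.58 CPM in control, 5.41 ± 3.73 CPM in BN1 and 4.20 ± 3.71 CPM in AFFN1 cells (n = 3). The groups overlapped, and the libraries numbered 1 were again the lowest. Per kilobase, Iglc3 was the highest of the lambda constant genes in each group of day 14, at 11.8 ± 14.7 CPM in control, 6.71 ± 5.28 in BN1 and 5.20 ± 5.30 in AFFN1 cells. Iglc1 followed at 4.63 ± 5.33, 2.44 ± 1.88 and 2.58 ± 2.19, and Iglc2 stood at 1.45 ± 1.26, 2.07 ± 1.55 and 1.11 ± 1.01 CPM per kilobase. Iglc3 was above Iglc1 per kilobase in 9 of 9 day 14 libraries, although AFFN1 library 1 held 1 read of each, and Iglc1 was above Iglc2 in 7 of 9. Iglv1 had 29, 43 and 18 reads in the control, BN1 and AFFN1 groups, with 0 in all 3 libraries numbered 1. Iglv3 had 6, 7 and 4 reads and Iglv2 3, 3 and 2 in the same groups.

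The share of lambda among constant-region reads was uneven on day 6 and narrow on day 14. In control cells of day 6, 0 of 17 constant reads were lambda, which allows a share of up to 19.5%. In the BN1 cells 43 of 107 reads were lambda, or 40.2% (95% interval 30.8 to 50.1%). In AFFN1 cells 15 of 19 were lambda, or 78.9% (54.4 to 93.9%). The BN1 libraries differed among themselves, with 53.4% of 58 reads, 56.2% of 16 reads and 9.09% of 33 reads, and leaving out library 1 gave 24.5% for the group. On day 14 the pooled shares were 9.36% in control (8.48 to 10.3%), 10.9% in BN1 (9.70 to 12.2%) and 7.89% in AFFN1 cells (6.86 to 9.03%). The 9 single libraries of day 14 lay between 5.88% and 11.8%, although their constant reads differed from 51 to 2911. With counts per kilobase of exon, the pooled shares were 0, 44.0 and 81.3% on day 6 and 10.5, 11.9 and 8.79% on day 14 in control, BN1 and AFFN1 cells. No p-value is given for these shares, since they sum over members.

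**Figure D2:**
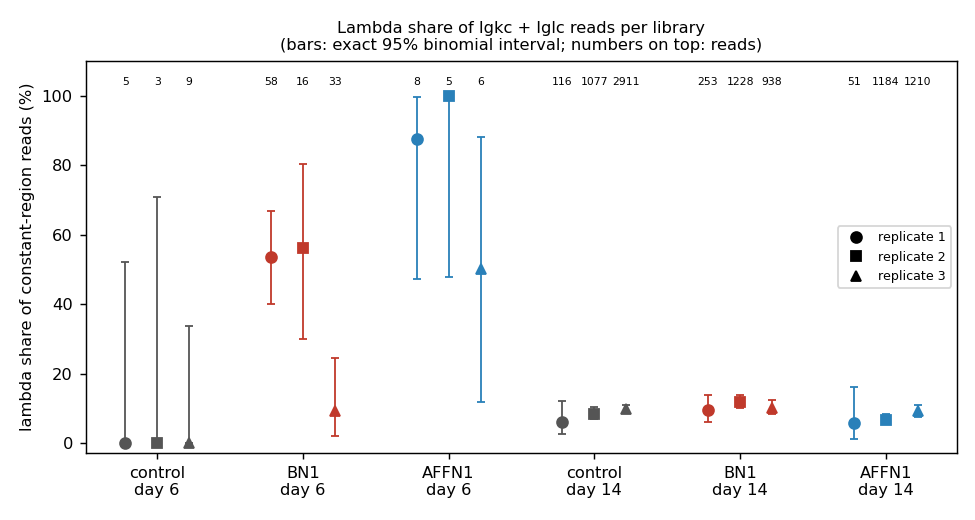
Share of lambda (Iglc1 to Iglc3) among all constant-region reads per library, in percent, with exact 95% binomial intervals and the number of reads above each symbol. Day 14 libraries lie between 5.88% and 11.8%, and day 6 libraries range from 0 in control cells to 100% of 5 reads in 1 AFFN1 library.

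The kappa V segments gave 160 members, of which 100 are annotated as genes and 60 as pseudogenes. Their 3′ ends are shown for the segments that led the counts on either day, since the last bases of a V segment meet the J segment on joining. Capitals mark the 9 bases that end in the codon of the conserved second cysteine.
Igkv14-111: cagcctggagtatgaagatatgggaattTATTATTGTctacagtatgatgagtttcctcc
Igkv9-124: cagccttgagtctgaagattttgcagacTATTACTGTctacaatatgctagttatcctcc
Igkv3-2: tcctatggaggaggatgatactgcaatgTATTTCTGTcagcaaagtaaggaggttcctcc

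Igkv14-111 (chr6:68256389-68256869, plus strand) and Igkv9-124 (chr6:67942074-67942540, minus strand) matched at 84.9% of 344 aligned bases, with no identical stretch over 27 bases. Against all members, Igkv9-124 shared a longest identical stretch of 102 bases with Igkv9-120, and Igkv14-111 shared 44 bases with Igkv14-126. Igkv3-2 (chr6:70698449-70699067, plus strand), the V segment 23.5 kb from Igkj1, shared an identical stretch of 86 bases with Igkv3-5. The 15 Igkv genes with the highest mean CPM are 346 to 382 bases long, so their reads can be set side by side with little effect of length. Within this set, Igkv3-10 and Igkv3-5 share 159 identical bases. Igkv17-127 shares 143 with Igkv17-121, and Igkv10-96 shares 131 with Igkv10-94. Reads of the Igkv3 family, of Igkv9-124 and of these segments are uncertain at the level of single genes.

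Igkv reads numbered 199 on day 6 and 1452 on day 14. The day 6 libraries held 26, 26 and 33 Igkv reads in control, 18, 17 and 12 in BN1 and 21, 15 and 31 in AFFN1 cells. The BN1 libraries lay below the control libraries without overlap (0.858 ± 0.156 against 1.59 ± 0.119 CPM, n = 3), while their Igkc mean was the higher one. Without the leading Igkv segment of each day, 27 of the pooled Igkv reads remained in BN1 and 29 in control cells of day 6. Those 2 segments, described in the next paragraphs, thus held most of this difference, and the other Igkv reads were similar in number. The day 14 libraries held 68, 191 and 305 reads in control, 74, 188 and 212 in BN1 and 83, 164 and 167 in AFFN1 cells, and the groups overlapped at 12.0 ± 8.07, 9.72 ± 4.59 and 8.83 ± 3.35 CPM. Set against Igkc, there were 234 Igkv reads per 100 Igkc reads on day 6 and 17.9 on day 14. In control and AFFN1 cells of day 6 the Igkv reads outnumbered the Igkc reads, at 500.0 and 1675 per 100, and in BN1 cells they did not when pooled, at 73.4 per 100. The BN1 libraries differed in this, since in library 2, with 17 Igkv and 7 Igkc reads, the Igkv reads were the more numerous. The libraries numbered 1 had the highest such ratio within each day 14 group, at 62.4, 32.3 and 173 in control, BN1 and AFFN1 cells.

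On day 6 a single V segment held almost as many reads as all others together. Igkv14-111 had 13, 17 and 17 reads in control, 6, 7 and 6 in BN1 and 10, 5 and 15 in AFFN1 libraries, 48.2% of the Igkv reads of day 6. It held the most Igkv reads in each of the 9 day 6 libraries, at 33.3 to 65.4% of them. On day 14 it had 14, 3 and 10 reads in control, 14, 2 and 33 in BN1 and 42, 10 and 7 in AFFN1 libraries. Its share of Igkv reads was 20.6, 18.9 and 50.6% in the libraries numbered 1 and 1.06 to 15.6% in the other 6 libraries of day 14. The day 6 level was 0.890 ± 0.185 CPM in control, 0.349 ± 0.0485 CPM in BN1 and 0.558 ± 0.280 CPM in AFFN1 cells (n = 3). BN1 lay below control without overlap, and the difference of 1.34 on the log2 scale did not pass (log2 fold change -1.34, SE 0.45, adjusted p = 0.0665, edgeR). As the only member tested on day 6, it was called in none of the 3 comparisons by edgeR or DESeq2, with 17.4, 12.7 and 11.2% of all genes called by edgeR for BN1 against control, AFFN1 against control and BN1 against AFFN1. At an unadjusted threshold of 0.05 it passed in the first of these only. Between the days its level was not called changed in any genotype, with log2 differences of -0.65 in control, 1.51 in BN1 and 1.12 in AFFN1 cells (adjusted p = 0.529, 0.139 and 0.246, edgeR). Without BN1 library 2 of day 14, which had 2 reads, it was called higher on day 14 in BN1 cells (log2 difference 2.03, SE 0.74, adjusted p = 0.0394, edgeR; 20.9% of genes higher).

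On day 14 Igkv9-124 held the most pooled Igkv reads and was first in 5 of the 9 libraries. Igkv14-111 was still first in control library 1, BN1 library 3 and AFFN1 library 1, and level with Igkv9-124 in BN1 library 1. Igkv9-124 and Igkv3-2 passed the low-count filter only through their day 14 reads, so their tests describe a difference the filter favoured. Igkv9-124 had 4, 1 and 4 reads in control libraries of day 6 and 12, 46 and 51 on day 14, and it rose in control cells by 3.73 on the log2 scale (SE 0.80, adjusted p = 0.00134, edgeR). In the BN1 cells it had 0, 0 and 1 reads on day 6 and 14, 30 and 11 on day 14, a ratio of 61.5 (counting interval 10.6 to 2471, adjusted p = 0.000751, edgeR). In AFFN1 cells it had 1, 0 and 1 reads and then 6, 37 and 23, a ratio of 37.7 (10.0 to 318, adjusted p = 0.000649, edgeR). The days did not overlap in any genotype. Igkv3-2 had 0 reads in all control and BN1 libraries of day 6 and 1 read in AFFN1 cells, and then 5, 33 and 46 reads in control, 12, 14 and 9 in BN1 and 4, 15 and 5 in AFFN1 libraries. On the floor of 3 reads it was at least 31.1-fold higher on day 14 in control cells (at least 20.5-fold without control library 3) and at least 13.0-fold higher in BN1 cells. The ratio in AFFN1 cells was 27.4 (4.47 to 1128, adjusted p = 0.0131, edgeR; adjusted p = 0.0577 without day 14 library 2 of AFFN1).

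**Figure D3:**
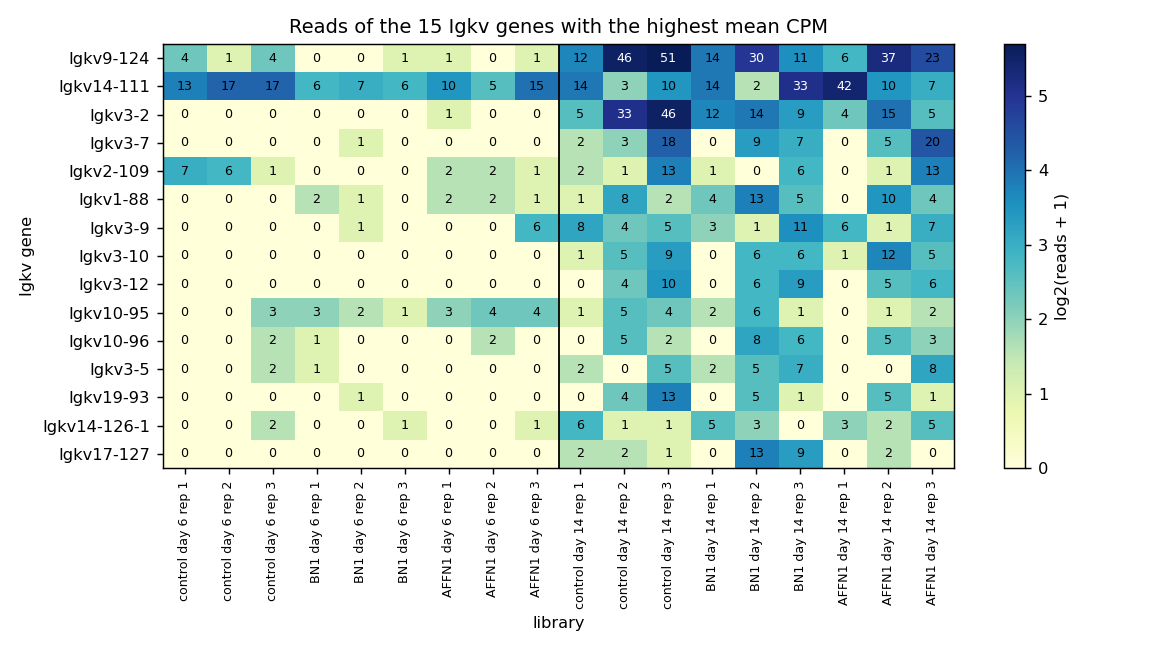
Reads per library of the 15 Igkv genes with the highest mean CPM over all 18 libraries, with the number of reads in each cell and log2(reads + 1) as colour. Left of the line (day 6) Igkv14-111 is the gene with 5 to 17 reads in every library, and right of it (day 14) Igkv9-124, Igkv3-2 and further genes of the Igkv3 family also hold reads.

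The reads were spread over more V segments on day 14, where there were also more of them. In all, 26 Igkv genes had reads on day 6 and 90 on day 14, 23 of them on both days, and 67 had none. The number of genes that together held 90% of Igkv reads was 6, 14 and 7 in control, BN1 and AFFN1 cells of day 6 and 40, 41 and 32 on day 14. These numbers grow with the reads counted, so no difference between days is read from them. The next genes by level after the leading 3 were Igkv3-7 with 1 read on day 6 and 64 on day 14, Igkv2-109 with 19 and 37, Igkv1-88 with 8 and 47, and Igkv3-9 with 7 and 46. Igkv3-10 and Igkv3-12 had 0 reads on day 6 and 45 and 40 on day 14. Igkv10-95 was at similar read numbers on both days, with 20 and 22. The remaining 5 of the 15 highest genes (Igkv10-96, Igkv3-5, Igkv19-93, the pseudogene Igkv14-126-1 and Igkv17-127) had 0 to 5 reads on day 6 and 26 to 29 on day 14. Igkv17-127 had 22 of its 29 reads in the BN1 libraries 2 and 3 of day 14.

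Position and strand of the V segments that held reads differed between the days as a description of pooled reads. The 160 segments were divided into 3 equal spans of the 3166 kb before Igkj1. The nearest span, with 53 segments, held 10.1% of Igkv reads on day 6 (95% interval 6.25 to 15.1%) and 37.3% on day 14 (34.8 to 39.8%). By library the nearest span held 0 to 19.4% on day 6 and 18.1 to 43.0% on day 14, and the AFFN1 library 1 of day 14, at 18.1%, was the only day 14 library inside the range of day 6. The farthest span, with 47 segments, held 69.8% on day 6 and 40.4% on day 14. Segments on the strand of Igkc, 75 of the 160, held 80.4% of reads on day 6 and 53.9% on day 14. Joining such a segment deletes the DNA between, while joining one on the opposite strand inverts it. The Igkv14 family held 51.3% of reads on day 6 and 12.5% on day 14, the Igkv3 family 6.03 and 27.7%, the Igkv4 family 1.51 and 15.4%, and the Igkv9 family 6.03 and 17.3%. Pseudogenes held 4.02% on day 6 and 5.72% on day 14. Igkv14-111 alone accounts for 96 of the 139 farthest-span reads of day 6, so the day 6 shares are largely those of 1 segment.

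**Figure D4:**
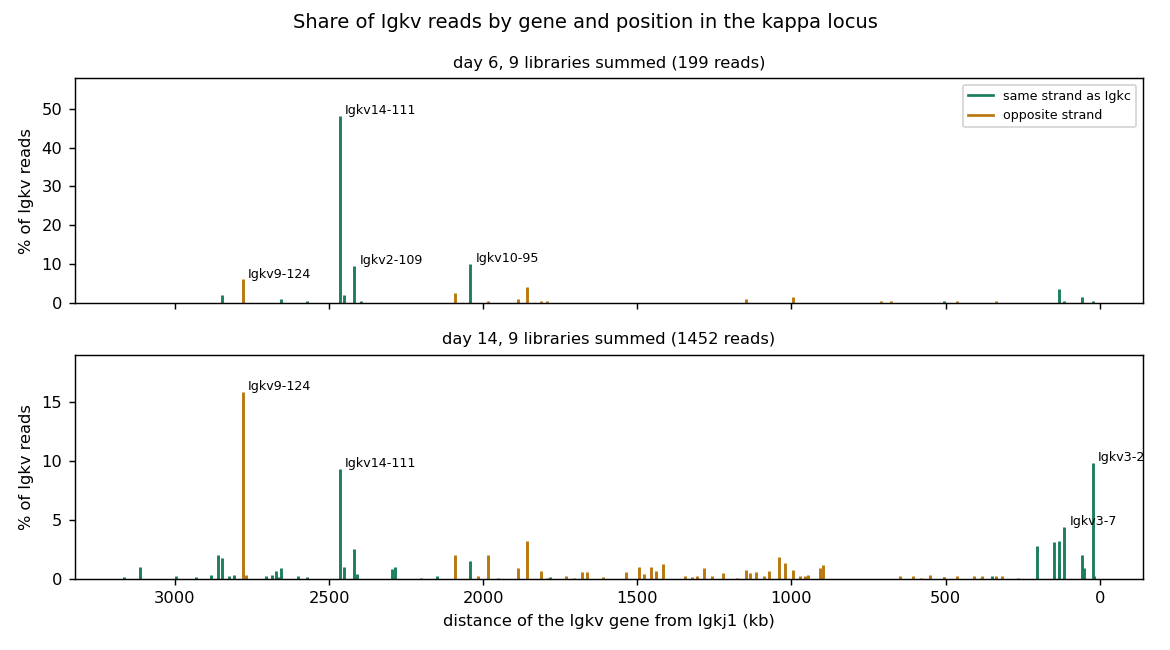
Percent of all Igkv reads per gene against distance from Igkj1 in kb, for day 6 (top, 199 reads) and day 14 (bottom, 1452 reads), with separate vertical scales, coloured by strand relative to Igkc. Igkv14-111 holds 48.2% on day 6, and on day 14 Igkv9-124 leads and the cluster nearest to the J segments, with Igkv3-2, holds reads.

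Counted over all tested members, 8 passed the filter on low counts in the comparison of days: Igkc, Igkv14-111, Igkv3-2, Igkv9-124, Iglc1, Iglc2, Iglc3 and Iglv1. Since 7 of them passed only through their day 14 reads, the counts are given as a description. In control cells 6 of the 8 were called higher on day 14 and none lower, with 43.9% of all genes called, 22.4% higher and 21.4% lower. Iglc1 was at least 36.0-fold, Iglc2 at least 15.6-fold and Iglc3 at least 90.8-fold higher than the floor (adjusted p = 0.0121, 0.00953 and 0.00609, edgeR). Control library 3 held 72 of the 97 Iglc1 reads and 194 of the 245 Iglc3 reads of day 14. Without it the bounds were at least 13.5-fold for Iglc1 and 27.6-fold for Iglc3, and both were still called (adjusted p = 0.0472 and 0.0196, edgeR). For Iglc2 the days overlapped, since control library 1 of day 14 also had 0 reads. Iglv1 missed the threshold (adjusted p = 0.0601, edgeR), and Igkv14-111 was not called. In the BN1 cells 4 of 8 were called higher, with 24.2% of all genes: Igkc, Igkv3-2, Igkv9-124 and Iglc2. Iglc1 and Iglc3 already had 21 reads each in BN1 cells of day 6, and their days overlapped (Iglc3 log2 difference 2.98, SE 1.37, adjusted p = 0.0895, edgeR). With the replicate number as a block Iglc3 was called higher on day 14 in BN1 cells (adjusted p = 0.00389, edgeR) and in AFFN1 cells (adjusted p = 0.00788 with and 0.0776 without the block, edgeR), which made 5 of 8 and 6 of 8 members, with 26.8 and 26.4% of all genes higher. Without the 3 day 14 libraries numbered 1 it was called in both as well (adjusted p = 0.00178 and 0.00121, edgeR). In AFFN1 cells 5 of 8 were called higher, with 24.4% of all genes: Igkc, Igkv3-2, Igkv9-124, Iglc1 and Iglc2. The AFFN1 ratios were 30.9 for Iglc1 (counting interval 8.14 to 261) and 36.6 for Iglc2 (6.11 to 1490), with adjusted p = 0.0465 and 0.0249 in edgeR. Iglc1 missed the threshold without AFFN1 library 3 of day 14 (adjusted p = 0.115, edgeR), and Iglc2 missed it without library 2 (adjusted p = 0.101, edgeR). Among the fits with 1 AFFN1 library left out, Iglc1 was called only without library 1 of day 14. Iglc2 was called only without library 1 or 3 of day 14 or library 1 of day 6. Without the filter on low counts Iglc1 was not called in AFFN1 cells. The AFFN1 count was 3 without AFFN1 library 2 or 3 of day 6 or library 2 of day 14, and 8 of 10 without the 3 day 14 libraries numbered 1 (24.7% of all genes higher). The 2 comparisons in fusion cells were added after the data were seen.

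Within day 14, none of the 8 tested members was called between any of the 3 genotypes in edgeR, and 0 were called by DESeq2 (6.65, 0.676 and 0.783% of all genes for BN1 against control, AFFN1 against control and BN1 against AFFN1) or with the replicate number as a block (11.6, 0.558 and 0.18%). At an unadjusted threshold of 0.05 edgeR's counts were 0 for BN1 against control, 1 for AFFN1 against control (Igkv3-2) and 0 for BN1 against AFFN1 cells. Without the block edgeR called 0.0257, 0.0429 and 0% of all genes in these 3 comparisons. The median log2 difference of the 8 members was -0.86 for BN1 against control, -0.74 for AFFN1 against control and 0.15 for BN1 against AFFN1, beside -0.005, -0.02 and -0.01 over all genes. With the block the medians were -0.31, -0.69 and 0.56. The SEs of single members were 0.72 to 1.48 on the log2 scale without the block and 0.49 to 0.88 with it, so smaller differences between genotypes may have been missed. The fusion effects of day 14 minus day 6 gave no called member in edgeR or DESeq2 (at an unadjusted threshold of 0.05, 1 of 8 for BN1 in edgeR and 2 in DESeq2, and 0 and 1 for AFFN1). All genes called were 2.97 and 1.46% in edgeR and 4.83 and 2.73% in DESeq2. With the replicate block, Iglc1 and Iglc3 were called lower for the BN1 effect (adjusted p = 0.0469 and 0.0403, edgeR, with 1.97% of genes lower). Without the block neither was called (adjusted p = 0.372 and 0.436, edgeR). The block also used the day 6 numbers, which are not known to pair libraries. In this comparison control cells of day 6 had 0 reads of both genes and BN1 cells 21 of each.

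Genes of light chain assembly and of pre-B cell signalling (recombinase and end-joining genes, transcription and chromatin factors, and genes of the pre-B cell and cytokine receptors) were followed as a list of 45, chosen with earlier results of these data known, and all 45 were tested. Between BN1 and control cells on day 6, 12 were higher and 4 lower in edgeR, with 8.83% of all genes higher and 8.53% lower. Irf4, a factor that binds the kappa enhancers, stood at 104, 64.3 and 94.8 CPM in BN1 and 26.2, 19.8 and 37.1 CPM in control libraries (log2 difference 1.64, SE 0.24, adjusted p = 0.00164, edgeR). The partner factor Spib fell by 1.90 (adjusted p = 0.00585, edgeR), and Syk, the kinase below the pre-B cell receptor, fell by 1.92, from 320.0 to 426.2 CPM in control to 85.2 to 124 CPM in BN1 libraries (adjusted p = 3.1e-05, edgeR). Bach2, a repressor that acts in pre-B cells, was 1.31 higher, the Ikaros gene Ikzf1 0.71 higher, Ighm 0.53 higher and the B lineage factor Pax5 0.50 higher. Xrcc5 (Ku80), an end-joining protein, was 0.64 lower. The recombinase genes Rag1 and Rag2 were also among the 12 (0.90 and 0.68 higher, adjusted p = 0.0195 and 0.0381, edgeR).

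Between AFFN1 and control cells on day 6, 7 list genes were higher and 6 lower, with 7.79 and 4.87% of all genes. Rag1 was 1.18 higher on the log2 scale, Irf4 1.14, the octamer-binding factor Pou2f2 (OCT2) 1.33, Ikzf1 0.64 and Vpreb2 0.72 higher. The octamer co-activator Pou2af1 fell by 0.84, Xrcc5 fell by 0.87 and Ikzf3 (Aiolos) fell by 1.68 (adjusted p from 0.000581 to 0.0143 over these 8, edgeR). Irf4 stood at 64.5, 69.1 and 50.4 CPM in the AFFN1 libraries, above all control libraries. Between BN1 and AFFN1 cells 5 were higher and 2 lower, with 4.99 and 6.19% of all genes. The higher ones were Pou2af1, Ighm, Ikzf3, Igll1 and Bach2 by 0.45 to 1.84 on the log2 scale, and the lower ones were Syk by 2.04 and Pou2f2 by 1.16.

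From day 6 to day 14 in control cells, 19 list genes rose and 5 fell, against 22.4 and 21.4% of all genes. By adjusted p the leading 8 were Rela, an NF-kappaB subunit (1.05), Ighm (1.58), Irf4 (2.21), Cd79a (1.63), Spi1 (PU.1, 0.76), Ikzf3 (2.63) and Pou2af1 (1.31), which rose, and Brwd1, a chromatin reader linked to the opening of the Jκ region, which fell by 1.36 (adjusted p at most 0.000522, edgeR). Rag1 fell by 1.52 and Rag2 fell by 0.70 in the same comparison (adjusted p = 0.00449 and 0.043, edgeR). In the BN1 cells 22 rose and 4 fell (24.2 and 24.0% of all genes, 48.2% in all), and in AFFN1 cells 20 rose and 5 fell (24.4 and 23.5%, 47.8% in all). For the BN1 effect between days, 1 list gene was called, Syk, by 2.48 (adjusted p = 0.00186, edgeR; 1.93% of all genes higher), and for the AFFN1 effect 0 were called (0.724% of all genes higher). With the replicate block the BN1 effect was called for 5 list genes: Syk (2.59), Spib (1.99), the adaptor gene Blnk (0.96) and Tcf3 (E2A, 0.59) were higher, and Bach2 was lower (-0.77; adjusted p at most 0.0492, edgeR), with 3.2% of all genes higher and 1.97% lower. The blocked AFFN1 effect was called for Xrcc5, 1.01 higher (adjusted p = 0.041, edgeR; 1.29% of genes higher).

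Within day 14 no list gene was called between genotypes without the block. With the replicate number as a block, 12 of the 45 were higher in BN1 than in control cells and none lower, with 4.95% of all genes higher and 6.61% lower, and 0 were called for AFFN1 against control. Rag1 stood at 188, 460 and 383 CPM in control and 1149, 1167 and 1473 CPM in BN1 libraries, higher for every number (log2 difference 1.97, SE 0.29, adjusted p = 0.0137 with the replicate block, edgeR). Rag2 was 1.34 higher, and Foxo1, which drives Rag transcription, 0.73 higher. The others among the leading 8 were Tcf12, Blnk, Brwd1, Il7r and Bach2, by 0.52 to 0.91 on the log2 scale (adjusted p from 0.0137 to 0.0287 over the 8). In those same numbered pairs Igkc was 2.11, 1.10 and 0.300 times control. Igkc and the 7 other tested members were not called in that blocked comparison.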

How the data were processed

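Poly(A) RNA of 18 libraries was sequenced, and the authors deposited 1 table of expected counts per gene. Per the submitters' processing notes STAR, RSEM and DESeq2 were used with the mm10 build; versions, the annotation and the strand setting were not given in the sources used here. RSEM shares reads between similar sequences, which matters for V gene families. Expected counts were rounded to whole reads (16 of 3204 member values were not whole). Tests used edgeR 4.0.16 (R 4.3.3) with its expression filter, TMM scaling and robust quasi-likelihood fits, on the 9 libraries of a day or on all 18 for comparisons of days, with Benjamini-Hochberg adjustment over all tested genes and a threshold of 0.05. DESeq2 1.42.0, other scalings, no filter, left-out libraries and a replicate block were alternatives. The fits were tested on simulated data with 1 fixed spread and with changes only in genes of higher counts than most members have. That test does not cover members with few reads. Named were all constant, J and lambda members with reads, the 15 Igkv genes highest in mean CPM, and per comparison up to 6 called Igkv genes of at least 5 CPM (none qualified) and up to 8 called list genes by adjusted p; Rag1 and Rag2 were otherwise added after their values were seen. The members and lists were chosen with earlier results of these data known. Same-numbered libraries were compared as pairs on day 14 only, where a shared code in the labels joins them (all 9 correlations of deviations 0.291 to 0.614). On day 6 the same correlations were -0.321 to 0.351. The replicate block was coded within each day, however. Blocked comparisons with day 6 libraries therefore also block by the day 6 numbers, which are not known to pair libraries. Coordinates, lengths and sequences are from GENCODE M21; all 178 members matched.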

Additional observations from a re-analysis of the deposited data

How the results depend on the processing

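Few reads limit these results: most members had under 10 reads per library on day 6, and 1 library could decide a count. Over scaling by total count or by relative log expression, DESeq2, the fit of only the 2 groups compared and the replicate block, the counts of called members stayed within 1.5 times those reported, except that the block gave 2 for the BN1 effect of day 14 minus day 6. Without the filter on low counts the called members numbered 3 for BN1 against control and 1 for BN1 against AFFN1 on day 6, 12 for control between days and 7 for BN1 between days. In the comparisons of days all 100 members with at least 1 read entered under that setting. The share of all genes called under it between days is not given here, so these counts are a description only. Leaving out 1 library gave 0 to 1 for BN1 against control and for BN1 against AFFN1 on day 6, 6 to 8 for control between days, 4 to 5 for BN1 and 3 to 7 for AFFN1 between days, and 0 for each other comparison. The 1 on day 6 was Igkc, which entered the test only when a left-out library let it pass the filter, so it supports nothing. In settings added after the data were seen, leaving out the 3 libraries numbered 2 gave 1 for BN1 against AFFN1 on day 6, with or without the block, and leaving out the day 14 libraries numbered 1 gave 8 for AFFN1 between days. The sign of Igkc within day 14 was unstable while never called. Its log2 difference was -0.89 for BN1 against control (range -1.41 to 0.41 over single left-out libraries, the highest without control library 3; -1.46 without the libraries numbered 2, 0.27 without the libraries numbered 3 and 0.66 with the block as well). For AFFN1 against control it was -0.75 (-1.28 to 0.54; 0.54 without control library 3 and 0.0893 without the libraries numbered 3). For BN1 against AFFN1 it was -0.14 (-0.69 to 0.32; 0.47 with the replicate block, 0.90 with the block and without the libraries numbered 2 or 3, 0.19, 0.32 and 0.29 without AFFN1 library 2, AFFN1 library 3 or BN1 library 1, and 0.18 without the libraries numbered 3). Beyond the changes named here and in the results, the block changed no count of called members by over 1.5 times. The day 14 log2 ratios of the summed levels turned sign without control library 3, from -0.78 to 0.39 for kappa and -0.49 to 0.93 for lambda in BN1 against control, and from -0.68 to 0.48 and -0.95 to 0.47 in AFFN1 against control. Those against AFFN1 in BN1 ranged from -0.61 to 0.33 for kappa and from -0.11 to 1.17 for lambda over single left-out libraries. On day 6 the kappa ratio of BN1 to control ranged from -0.0495 to 0.30. The spread between libraries was larger than these moves. In addition, the number of Igkv genes that hold 90% of reads on day 6 moved by more when a library was left out (3 in control without library 3, 9 to 12 in BN1 and 6 in AFFN1).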
